A study of Apis mellifera with 13 samples.

Results

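In honey bees fed ethanol, or ethanol with curcumin, short stretches of CpGs were often listed in both comparisons of the study with different bounds, and 5651 listed regions were of this kind. A member of this set is a region of 2 to 9 CpGs that shares at least 1 bp with a region of the other comparison and has no region with the same start and end there. Of the 5375 regions of 2 to 9 CpGs listed for ethanol against control, 2837 (52.8%) were members, and of the 5820 listed for curcumin and ethanol against ethanol, 2814 (48.4%) were members. Both tables together list 18576 regions of any length. The members of both tables, which are counted separately although they overlap each other, formed 3985 overlapping pairs of an ethanol region and a curcumin region, the names used here for regions of the first and the second comparison. In 2101 pairs both regions were members, and in the other 962 and 922 pairs only the ethanol region or only the curcumin region was, the partner having 1 CpG or at least 10.

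DNA methylation in the honey bee is sparse, and it is found mostly on CpGs in the bodies of genes, where it is enriched in exons. Neighbouring CpGs tend to carry similar levels, so that changes are usually described by region and not by single CpG. A region is a run of CpGs whose smoothed difference between 2 groups stays on the same side of zero and above a cutoff, and it ends where the difference drops below that cutoff. The same CpG cluster can therefore be cut at different places in 2 comparisons. In both tables the smallest mean difference of a listed region was 0.1 in size, and the smallest cluster held 7 CpGs.

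Whole genome bisulfite sequencing (WGBS) was done on 13 single bees of the strain carnica, all winter workers kept in cages, from the abdominal carcass with its fat body, after the gut and the stinger had been taken out. The fat body is the insect organ of energy storage and metabolism. The groups were 5 control bees on the stock feed, 5 bees whose feed held 1% ethanol and 3 bees whose feed held 1% ethanol and 100 µg/ml curcumin, and all ate their diet for 10 days. Further bees fed curcumin and ethanol were left out by the authors for low bisulfite conversion. No bees were fed curcumin without ethanol. Each diet was given to 2 cages, which held no bees of another diet, so that diet and cage cannot be told apart. The bees came from separate donor hives, and the labels give neither the hive nor the cage of a sequenced bee. The tables give 1 value per region and comparison, so the values below have no error between bees, the sequencing depth behind a region is unknown, and the tissue could not be checked against markers. Differences are given per CpG, as the authors' summed difference of a region divided by its number of CpGs with the sign turned. By the methods their scale should be the arcsine of methylation levels, which the tables do not state. A positive value means higher methylation in ethanol bees than in control bees, or in curcumin and ethanol bees than in ethanol bees. Members were chosen by their measured bounds and number of CpGs, which follow from the differences of both comparisons, so the values below are a description and carry no test.

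The longer region of a pair was found about as often in either comparison. The curcumin region held more CpGs in 1969 pairs (49.4%), the ethanol region in 1854 pairs (46.5%), and both held the same number in 162 pairs (4.07%). Measured in bp, the curcumin region was longer in 51.1% and the ethanol region in 48.9%. Where the ethanol region was longer, its median was 5 CpGs over 600 bp, against 2 CpGs over 54.5 bp for the curcumin region it overlapped. Where the curcumin region was longer, its median was 5 CpGs over 547 bp, against 2 CpGs over 69.0 bp. Among pairs of unequal length the median ratio of longer to shorter was 2.00. A difference of 1 CpG was the commonest, with 1451 pairs, and 1047 pairs differed by 4 CpGs or more.

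**Figure D1:**
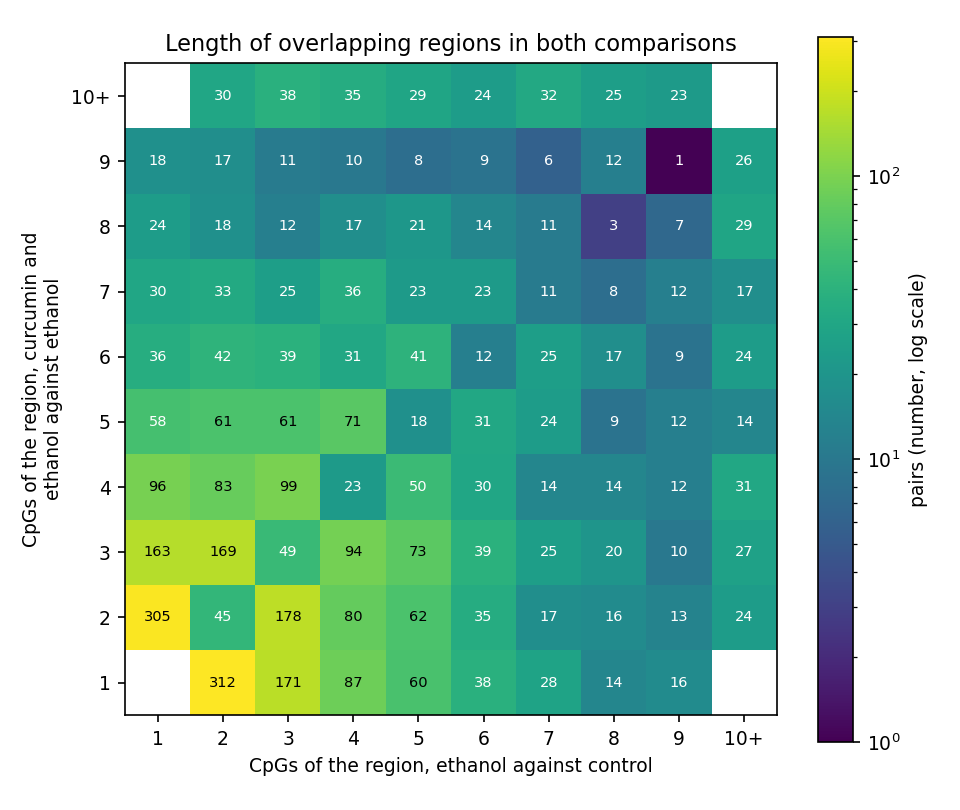
Number of CpGs of the ethanol region (x axis) and of the curcumin region (y axis) in the 3985 overlapping pairs, where each cell gives the number of pairs and the colour shows it on a log scale. The commonest pairs were 1 CpG against 2, with 312 pairs where the ethanol region had the 2 CpGs and 305 where the curcumin region did.

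The 3 largest gaps in length all involved a partner of at least 10 CpGs. On linkage group 6 an ethanol region of 7 CpGs (7462075 to 7462829, -0.131 per CpG) lay within a curcumin region of 41 CpGs (7461551 to 7464101, 0.355 per CpG). On linkage group 4 a curcumin region of 6 CpGs (12598910 to 12599191, 0.194 per CpG) lay within an ethanol region of 34 CpGs (12598673 to 12602150, -0.153 per CpG). A further curcumin region of 23 CpGs (12599636 to 12601946), too long to be a member, lay within the same ethanol region at 0.166 per CpG. On both linkage groups the curcumin regions had the opposite sign to the ethanol region. On linkage group 11, in the calcitonin receptor gene GB47217, a curcumin region of 2 CpGs (8576898 to 8576963, 0.224 per CpG) ended together with an ethanol region of 35 CpGs that began 33 CpGs earlier (8574209, 0.715 per CpG). Both differences were positive there, but the main curcumin region of this gene, which is no member with its 30 CpGs (8574209 to 8575551), covered the first 30 of the 35 ethanol CpGs at -0.247 per CpG. Calcitonin receptors are G protein-coupled receptors of peptide hormones. Positions are those of Amel 4.5 as the authors list them.

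Most pairs kept 1 of their edges. The start was the same in 1396 pairs (35.0%), the end in 1336 pairs (33.5%), and both edges moved in 1253 pairs (31.4%). With the start kept, the curcumin region ran further in 717 pairs and the ethanol region in 679. With the end kept, the curcumin region began earlier in 687 pairs and the ethanol region in 649. Of the pairs with both edges moved, the curcumin region lay within the ethanol region in 259, and the ethanol region lay within the curcumin region in 276. In the remaining 718 (18.0% of all pairs) the regions were staggered, so that each ran past the other at one side, with the ethanol region first in 355 and the curcumin region first in 363. In all, the ethanol region lay wholly within the curcumin region, kept edges included, in 1680 pairs (42.2%), and the curcumin region within the ethanol region in 1587 pairs (39.8%).

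**Figure D2:**
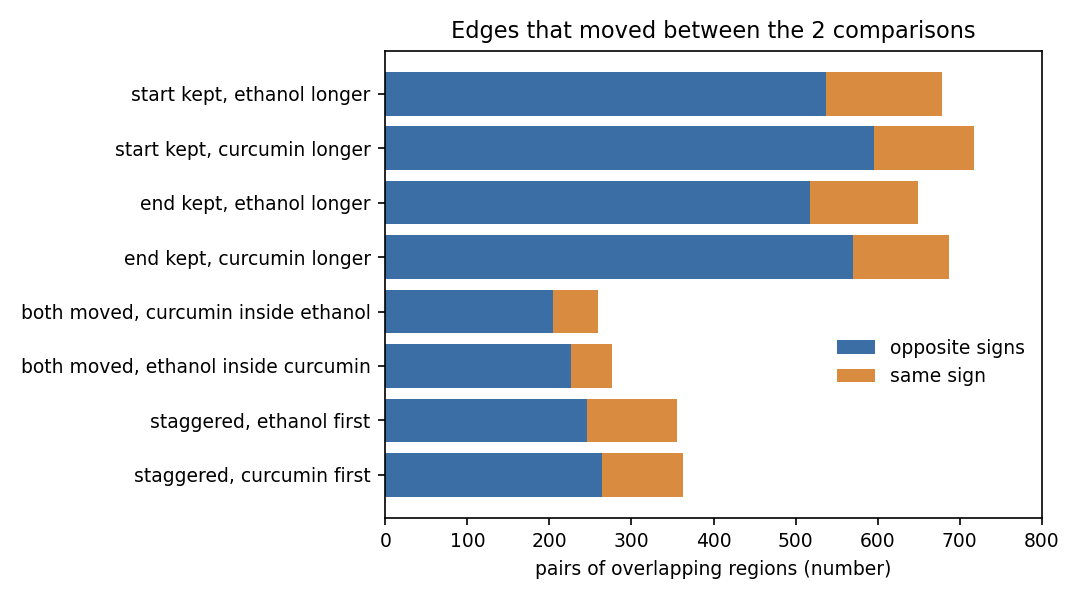
Number of pairs (x axis) in each of the 8 ways in which the edges differed (y axis), with blue for pairs whose differences had opposite signs in the 2 comparisons and orange for pairs with the same sign. The 4 classes with a kept edge each held 649 to 717 pairs, and the staggered classes had the lowest shares of opposite signs, 69.3% and 72.7%.

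The CpG numbers of the tables show how far an edge moved. Each comparison numbers its own CpGs, and the numbers of the ethanol table ran ahead by 0 at the start of linkage group 1 and by up to 137 further on, read at 5466 positions that bound a region in both tables. With this offset, 3779 of the 3985 pairs could be placed on a common CpG scale. A moved start was off by 1 CpG in 1072 of 2436 pairs (44.0%) and a moved end in 1045 of 2499 (41.8%), with a median of 2 CpGs for either edge. The largest steps were 33 CpGs at a start and 27 CpGs at an end. In bp, counted over all pairs, the median step was 344 at the start and 356 at the end. Against the ethanol region, the curcumin start was moved outward in 1326 pairs and inward in 1263, and the curcumin end outward in 1348 and inward in 1301. Neither edge was thus the one that mostly moved.

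Regions of a pair often shared few CpGs. In 1705 of the 3779 placed pairs (45.1%) they shared 1 CpG, and in 270 they shared 6 or more. A partner of 1 CpG can share no more than that. Of all 3985 pairs, 726 had such a curcumin partner and 730 such an ethanol partner. Summed over these pairs, 8832 CpGs were shared, 6077 belonged to the ethanol region only and 6866 to the curcumin region only, where a CpG can count in more than 1 pair. Seen from the ethanol members with every pair placed, 7253 of their 10769 CpGs (67.4%) also lay in a listed curcumin region, and in 974 of these 2680 members (36.3%) every CpG did. From the curcumin members it was 7076 of 10932 CpGs (64.7%), and every CpG in 875 of 2666 members (32.8%). The remaining CpGs lay in no listed region of the other comparison. The CpG just beyond an edge rarely belonged to another region of the same table. Counted over pairs, so that a member with several partners counts in each, it did at 8.36% of kept and 7.34% of moved edges of ethanol members. For curcumin members it was 10.5% of kept and 7.77% of moved edges.

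The 2 differences of a pair mostly had opposite signs. Methylation was higher with ethanol and then lower with curcumin in 1592 pairs (39.9%), with median differences per CpG of 0.185 and -0.199. It was lower with ethanol and then higher with curcumin in 1568 pairs (39.3%), with medians of -0.174 and 0.195. Both were higher in 405 pairs (10.2%) and both lower in 420 (10.5%), with medians of 0.154 and 0.180, and of -0.155 and -0.176. The 5 ethanol bees enter both comparisons with opposite signs, so that opposite differences and a chance deviation of these bees cannot be told apart, and the 3160 opposite pairs (79.3%) are not a measure of what curcumin did. Members showed no lean to either direction, since 1427 ethanol members (50.3%) and 1391 curcumin members (49.4%) were positive.

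**Figure D3:**
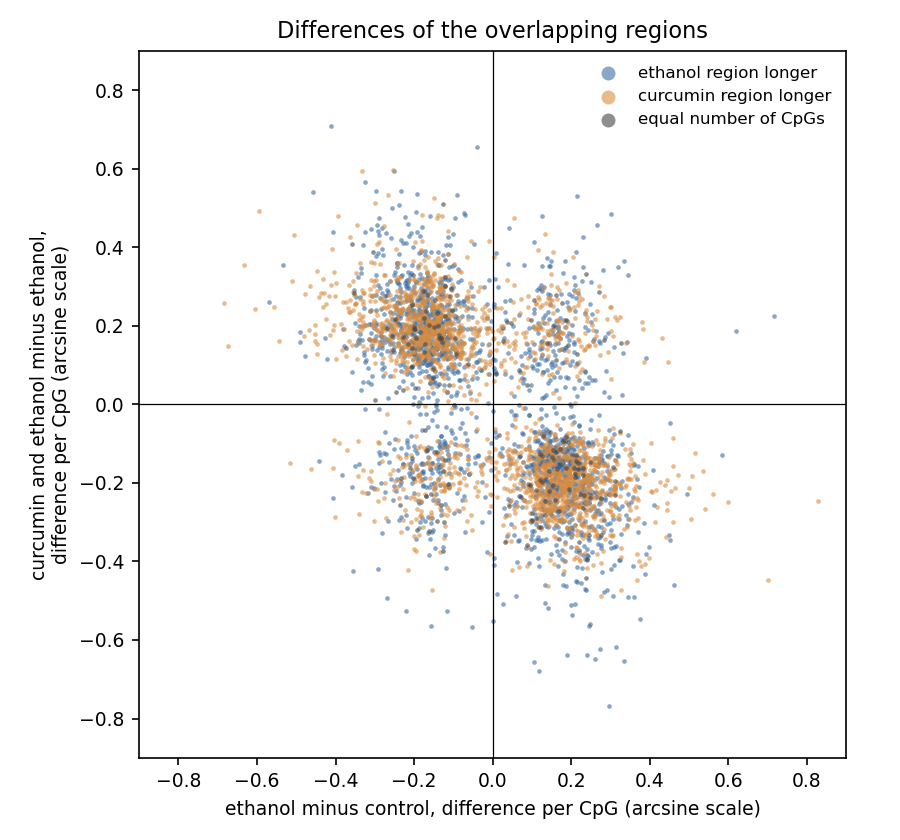
Difference per CpG of ethanol minus control (x axis) and of curcumin and ethanol minus ethanol (y axis), both on the arcsine scale, with 1 point for each of the 3985 pairs, in blue where the ethanol region held more CpGs, orange where the curcumin region did and grey where they were equal. The upper left and lower right hold 1568 and 1592 pairs, the upper right 405 and the lower left 420.

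The size of the listed differences was similar in both comparisons. Both list regions only down to a mean difference of 0.1 in size, and what part this had in the likeness was not tested. The absolute difference per CpG of ethanol members had a median of 0.174 and quartiles of 0.128 and 0.229, and that of curcumin members a median of 0.193 and quartiles of 0.144 and 0.251. Within a pair, the curcumin difference was the larger in 2282 pairs (57.3%). Its comparison had 3 bees fed curcumin, where the other groups held 5 bees each, and what part this had was not tested. Where the ethanol region was longer it also had the larger difference per CpG in 44.5% of pairs, and where the curcumin region was longer the ethanol difference was the larger in 41.1%. In 804 pairs both differences reached 0.2, and 705 of these (87.7%) had opposite signs. Of the 82 pairs with both at 0.3 or more, 77 had opposite signs (93.9%).

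Opposite signs were more frequent the more CpGs the 2 regions had in common. With 1 shared CpG, 1219 of 1705 pairs (71.5%) were opposite, with 2 it was 81.0%, with 4 it was 88.4%, and all 37 pairs with 9 shared CpGs were opposite. Relative to all CpGs of both regions, opposite signs made up 63.3% of 629 pairs sharing up to 20% and 97.5% of 119 pairs sharing over 80%. By edge, 81.2% of the pairs with a kept edge were opposite, as were 80.6% of those nested with both edges moved and 71.0% of the staggered ones. Of the pairs with the longer region in ethanol 77.8% were opposite, with the longer region in curcumin 81.0%, and with equal lengths 75.9%. A partner of 1 CpG went with 70.8% (ethanol members) and 75.6% (curcumin members). Regions that share more CpGs also share more of the same measurements of the ethanol bees, and what part this had in the trend was not tested.

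**Figure D4:**
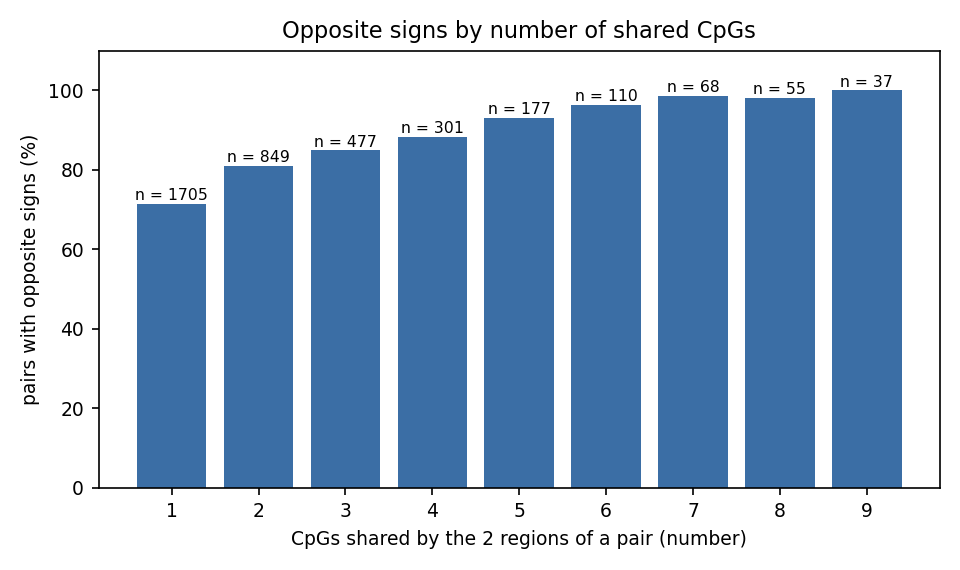
Share of pairs with opposite signs (y axis, %) by the number of CpGs that both regions hold (x axis), over the 3779 pairs placed on a common CpG scale, with the number of pairs above each bar. The bars stand at 71.5% for 1 shared CpG, 98.5% for 7, 98.2% for 8 and 100% for 9.

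By the lower region p of either table, the first pairs besides GB47217 and GB52826 lay on linkage groups 6 and 16, where the curcumin value was the lower one. The region p, made by the authors with comb-p, joins the single-CpG p values of a region. What it measures in the curcumin table is uncertain, as set out further down, and its values there are a listing only. On linkage group 6 an ethanol region of 9 CpGs (12889152 to 12889555) was higher by 0.453 per CpG, with a region p of 0.000359. Curcumin regions covered its first 3 CpGs, which were lower by 0.346 (-0.346 per CpG, region p 3.81e-05), and its last 2, at -0.0471 per CpG (region p 0.185). The 4 CpGs in the middle were listed for ethanol only, so that both edges of the ethanol region were kept, each by another curcumin region. On linkage group 16 an ethanol region of 9 CpGs (3714837 to 3715669) stood at 0.359 per CpG with a region p of 0.000159. Its curcumin region held 8 of the 9 CpGs, without the last, at -0.155 per CpG and a region p of 6.29e-05. By the ethanol region p alone the lowest member was another, on linkage group 1 (12385795 to 12386839), which was named after its value was seen. It held 4 CpGs at -0.570 per CpG with a region p of 8.17e-05, and its last 3 CpGs formed a curcumin region at 0.262 per CpG.

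In GB52826, a gene for a transmembrane protein on linkage group 8, the ethanol region of 15 CpGs (9094851 to 9097774, -0.490 per CpG) met 2 curcumin members, 1 at each side. The first held the first 6 CpGs (9094851 to 9095993) at 0.159 per CpG. The second shared the last CpG alone and ran 1 CpG beyond it (9097773 to 9098742), at 0.185 per CpG and a region p of 0.369. The 8 CpGs between them were in no curcumin region. CpGs that passed the authors' test individually were present in the ethanol regions on linkage groups 6, 8 and 16 and absent from the curcumin regions that kept their starts.

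The largest differences of members were in 2 CpGs, with 1 exception of 9. The largest of any ethanol member was 0.701 per CpG in 2 CpGs on linkage group 14 (4538812 to 4538846). The curcumin region there took in 1 more CpG before it (4538397 to 4538846) and stood at -0.448 per CpG. The next ethanol member, also of 2 CpGs, was at 0.619 on linkage group 1 (28645209 to 28645244), and 1 of its CpGs was listed for curcumin at 0.186, in the same direction. The authors' mean difference of this curcumin CpG was 0.101, near the smallest listed size of 0.1. The largest curcumin members were 2 CpGs on an unplaced scaffold (GroupUn52, 90817 to 91581) at -0.649 per CpG, within 3 ethanol CpGs at 0.261, and 9 CpGs on linkage group 11 (9351414 to 9351795) at -0.638 per CpG. The latter were the first 9 of an ethanol region of 11 CpGs at 0.240. The region p was 0.0435 on linkage group 14 and 0.0173 on linkage group 1 for the 2 ethanol members. For the 2 curcumin members it was 0.415 on GroupUn52 and 0.375 on linkage group 11, as a listing only. No adjusted p of these 4 was under 0.05. Individually significant CpGs were present in both curcumin members and in the ethanol member on linkage group 1. The ethanol member on linkage group 14 held none.

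Among the 8 classes of edge movement, the pair that was strongest in both comparisons by the difference per CpG had opposite signs in 6. With the start kept, an ethanol region of 5 CpGs on linkage group 5 (7095585 to 7095864) was at -0.456 per CpG and a curcumin region of its first 3 CpGs at 0.541. On linkage group 14 a single ethanol CpG (9304393) at -0.594 was the start of 3 curcumin CpGs at 0.492. With the end kept, 3 ethanol CpGs on linkage group 8 (6357122 to 6357978) at 0.462 ended with 2 curcumin CpGs at -0.460. A single ethanol CpG on linkage group 6 (18342269) at -0.432 lay within 3 curcumin CpGs (18342211 to 18342806) at 0.318. Among staggered pairs with the curcumin region first, 2 regions of 2 CpGs that shared 1 CpG on scaffold GroupUn126 (28750 to 28935, and 28934 to 29738) were at 0.407 for curcumin and -0.358 for ethanol. By the authors' mean difference, the curcumin region on linkage group 5 was at 0.138 and the single ethanol CpG on linkage group 6 at -0.114, near the smallest listed size of 0.1. The mean differences named here on linkage groups 14 and 8 and on GroupUn126 were at least 0.329 in size.

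Where they could be placed on the common CpG scale, the 4 strongest pairs with the same sign in both comparisons shared 1 or 2 CpGs. Of the 4, 2 were the strongest of their class, staggered with the ethanol region first and curcumin within ethanol. On linkage group 11 a curcumin region of 3 CpGs (3034380 to 3034687) at 0.329 met an ethanol region of 4 CpGs (3034686 to 3034766) at 0.346 in 1 CpG. Another pair of this linkage group, of 4 ethanol CpGs (14144105 to 14144243) at 0.333 and 2 curcumin CpGs (14144242 to 14144269) at 0.364, was also joined by 1 CpG. One more (8686405 to 8687474) was lower in both, with 3 ethanol CpGs at -0.355 around 1 curcumin CpG at -0.425. This pair overlapped by 1 bp and could not be placed on the common CpG scale. On linkage group 16, 2 curcumin CpGs (3567921 to 3567924) at 0.349 were the last of 15 ethanol CpGs (from 3567319) at 0.318. In the first 2 of these pairs the regions lay next to each other and met at their ends, so that each comparison listed mostly other CpGs. The authors' mean difference was smaller, at 0.101 for the ethanol region from 3034686, 0.115 for that from 14144105 and 0.105 for the curcumin region from 3567921. These lie near the smallest listed size of 0.1. Their partners were at 0.209, 0.257 and 0.281, and the pair lower in both at -0.309 and -0.298.

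Some regions were met by more than 1 region of the other comparison. This was so for 217 ethanol members and 199 curcumin members, both with a median length of 5 CpGs. In 170 of the 217 (78.3%) and 140 of the 199 (70.4%) the pieces had both signs, and in 41 and 52 all pieces were opposite to the member. Linked through shared regions, the pairs formed 3482 groups, of which 3064 held a single ethanol and a single curcumin region, and the largest held 6 regions. There were 3 groups of this size. On linkage group 1, 5 ethanol CpGs at 0.252 were followed by 23 at -0.296 per CpG. Along them lay 4 curcumin regions, of 2 CpGs at -0.0960, 7 CpGs at 0.201, 2 CpGs at 0.544 and 9 CpGs at 0.207. The second of these, from 14463718 to 14464507, bridged both ethanol regions and had the sign of the first.

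On linkage group 10, 3 ethanol regions of 7, 3 and 5 CpGs at 0.164, -0.194 and 0.170 alternated with 3 curcumin regions of 4 CpGs each at 0.241, -0.372 and 0.220. In order along this stretch, the signs of the curcumin regions followed those of the ethanol regions. The bounds of the later curcumin regions were shifted to lower positions, so that signs by shared CpGs partly differed. The curcumin region at -0.372 shared 2 CpGs with the ethanol region at 0.164 and 1 with that at -0.194. The one at 0.220 shared 2 CpGs with the ethanol region at -0.194 and 1 with that at 0.170. By comb-p, the region p of the 6 regions were 0.385 to 0.854. On linkage group 15 a curcumin region of 9 CpGs (9821550 to 9823711) at 0.304 spanned 2 ethanol regions of 2 CpGs, at -0.412 and 0.148. It shared a further CpG at each side with ethanol regions of 2 CpGs at 0.0542 and 5 CpGs at -0.171. A single curcumin CpG at the start of the first of these 2 was at -0.333.

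**Figure D5:**
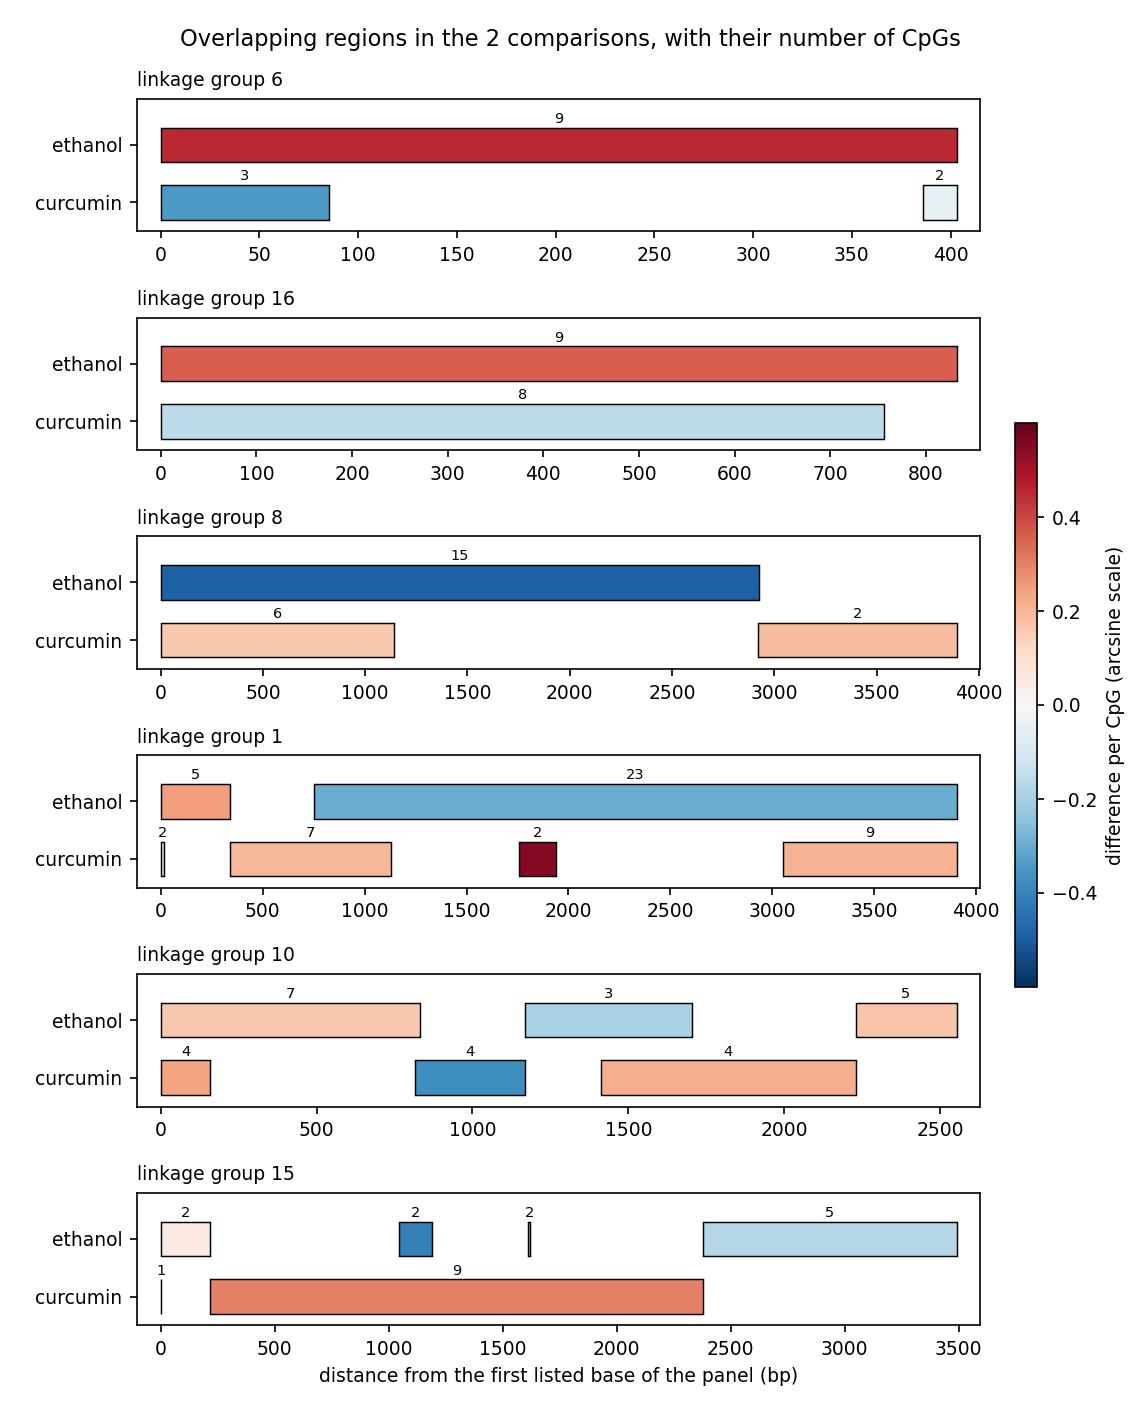
Regions of 6 groups of overlapping pairs, drawn to scale as boxes along the distance in bp from the first listed base of each panel (x axis), with the ethanol comparison in the upper row and the curcumin comparison in the lower row, the number of CpGs above each box and the difference per CpG as colour (red higher, blue lower). On linkage groups 6 and 8 curcumin regions lie at both ends of an ethanol region of the other colour. On linkage group 10 the colours of both rows come in the same order, but the later curcumin regions also overlap ethanol regions of the other colour.

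No member passed the Benjamini-Hochberg correction at 0.05 in either table, while a few passed the authors' Sidak correction. For the curcumin table these counts are a listing only, since what its region p measures is uncertain. By the authors' comb-p region p, adjusted after Benjamini-Hochberg over every row of its table, 0 of 2837 ethanol members and 0 of 2814 curcumin members were under 0.05, where 0.0450% of all ethanol regions and 0.0310% of all curcumin regions were. The lowest Benjamini-Hochberg adjusted comb-p value of a member was 0.125 in the ethanol table and 0.0922 in the curcumin table. Under 0.10 there were 0 ethanol members (against 0.0450% of all regions) and 2 curcumin members (against 0.0516%). Unadjusted, 243 ethanol members (8.57%, against 7.71% of all ethanol regions) and 188 curcumin members (6.68%, against 4.69%) had a region p under 0.05. Of the ethanol members 134 were higher and 109 lower, and of the curcumin members 81 were higher and 107 lower. By the authors' Sidak-corrected region p, 2 ethanol members (against 0.0900% of all regions) and 4 curcumin members (against 0.0826%) were under 0.05. An individually significant CpG was present in 583 ethanol members (20.5%, against 16.1% of all ethanol regions) and 651 curcumin members (23.1%, against 17.8%), where all regions include those of 1 CpG.

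In the curcumin table a low region p and individually significant CpGs often did not coincide. Of the ethanol partners with 1 CpG, 24 were marked as individually significant and 24 of these had a region p under 0.05. Of the curcumin partners with 1 CpG, 27 were so marked and 8 had a region p under 0.05. Among ethanol members with a region p under 0.05, 69.5% held an individually significant CpG, against 16.0% of the others. Among curcumin members it was 30.9% against 22.6%. In 157 of the 192 pairs that shared at least 4 CpGs and all but 1, the region p of the 2 tables lay within 2-fold of each other (81.8%), against 2446 of all 3779 placed pairs (64.7%) and 55.0% of those sharing up to 20% of their CpGs. The same value was held by 0 of the 3985 pairs, which decides nothing, because the 2 regions of a pair always differ in their bounds. Of 2213 regions of 2 to 9 CpGs listed for curcumin only, 0.949% had a region p under 0.05, against 6.68% of curcumin members. An individually significant CpG was present in 22.5% and 23.1% of them. For 1745 such regions listed for ethanol only, the share with a region p under 0.05 was 6.76%, against 8.57% of ethanol members. In the curcumin table a low region p was thus rarer where no ethanol region overlapped. Which comparison the region p of the curcumin table measures was not tested, and its values are not read here as a test of curcumin.

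All CpGs pointed the same way in 58.9% of ethanol members and 59.8% of curcumin members. It was 78.5% and 85.1% for members of 2 CpGs, and 33.8% and 29.7% for those of 6 to 9. The longer region of a pair was uniform in 51.3% (ethanol longer) and 50.1% (curcumin longer), and the shorter one in 79.3% and 76.3%. The shorter regions include partners of 1 CpG, in 726 and 730 pairs, which are uniform by definition. The shares of longer and shorter regions are therefore not comparable. Members covered only part of their CpG cluster. The cluster had a median of 23 CpGs for ethanol and 22 for curcumin members, and 6 and 8 members took in the whole of it. In 99.1% of the pairs the cluster was of equal size in both tables.

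Members were spread over the genome. Of the short ethanol regions of a linkage group, 46.7% (linkage group 9) to 57.3% (linkage group 7) were members, and of the short curcumin regions 37.2% (linkage group 9) to 51.4% (linkage group 4). Opposite signs made up 75.6% of the pairs on linkage group 16 and 85.6% on linkage group 4. The curcumin region was the longer in 57.0% of the pairs on linkage group 2 and in 41.7% of those on linkage group 13, which had 60 pairs. Unplaced scaffolds held 374 pairs, of which 74.6% were opposite.

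Members were set beside the other regions of 2 to 9 CpGs, with no test of the differences. The median member spanned 357 bp in either table at 11.0 CpGs per kb for ethanol and 11.3 for curcumin. The 793 regions with identical bounds in both tables had a median of 139 bp and 20.5 CpGs per kb, and regions listed in 1 table only had 157 bp and 20.7 per kb (1745 ethanol regions) and 177 bp and 19.2 per kb (2213 curcumin regions). The mean number of CpGs was 4.02 and 4.10 in members, 3.06 in regions of identical bounds, and 3.31 and 3.54 in those of 1 table. The absolute difference per CpG had a median of 0.194 and 0.214 at identical bounds, and of 0.154 and 0.167 in 1 table only, with members in between for both comparisons. Opposite signs made up 88.7% of the pairs with identical bounds. Close to the limits of the rule, shifted ethanol regions of 1, 2, 9 and 10 CpGs numbered 766, 785, 101 and 67 and had median absolute differences of 0.168, 0.176, 0.197 and 0.190. Shifted curcumin regions numbered 752, 757, 102 and 67, with 0.188, 0.192, 0.196 and 0.205. The smallest overlap of 1 bp was found in 1785 pairs, of which 1269 had opposite signs.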

How the data were processed

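WGBS reads of 13 bees were trimmed by the authors with Trimmomatic, aligned to Amel 4.5 using Bismark 0.16.3 with Bowtie 1.0.0 (versions from the submitters' processing notes), deduplicated and read into R 3.5.3. A CpG was kept from a mean coverage of 6 upward if 3 or more samples reached 10% methylation. Levels were arcsine transformed and each CpG was tested. The authors' deposited tables hold region bounds from bumphunter and, as scores, mean and summed differences. The deposited p-values are comb-p region p, their Sidak correction and a false discovery rate. They hold 0 columns of single samples, so no bee could be grouped or tested anew, and all values are those of the authors' comparisons.

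Regions of the 2 tables were paired where min(end) minus max(start) was at least 1 bp. The sign of the summed difference was turned because it opposed the mean difference in most regions. CpG numbers were aligned at bounds present in both tables. Benjamini-Hochberg adjustment of the region p was repeated over each table. Procedures were tested on simulated tables, where all 3000 simulated pairs were found and 100% of the edge classes came back. Each simulated pair stood alone and its edges moved by few CpGs, so larger groups and long steps were not covered. Members, lists and tests were chosen with earlier results of these data known. Named pairs were taken by rule: the 5 lowest region p, the strongest pair of each edge class, the 4 strongest of the same sign, the 3 largest gaps in length, the 2 largest differences per table, partners of regions with an adjusted p under 0.05, and the 3 largest groups. Alternatives covered the overlap, the number of CpGs, the partner, the edge tolerance, the measure and the correction. Sequence and gene annotation of Amel 4.5 were not used here. No sequences are shown for that reason, and genes are those the paper names. Tables were handled with pandas 2.3.3 and numpy 2.4.6 under Python 3.11.15, intervals came from scipy 1.17.1 and figures from matplotlib 3.10.9.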

Additional observations from a re-analysis of the deposited data

How the results depend on the processing

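When each region had to overlap the other by 50% of its length, 586 pairs of 544 ethanol and 551 curcumin members were left, of which 40.8% kept the start, 38.2% kept the end, 21.0% moved both edges and 92.5% had opposite signs. With partners of 2 to 9 CpGs only, 2101 pairs were left, of which the ethanol region was longer in 44.6% and the curcumin region in 47.7%, and 82.7% had opposite signs. In the 3000 pairs where neither region overlapped a further one, 37.5% kept the start, 36.3% the end, 26.2% moved both edges and 84.0% had opposite signs. Measured in bp, the curcumin region was longer in 51.1% and the ethanol region in 48.9%. In the 3743 pairs whose mean and summed differences had the same sign in each table and stayed within 1.57, a setting chosen after seeing the data, 81.1% had opposite signs. The Sidak-corrected region p gave 2 ethanol and 4 curcumin members and a threshold of 0.10 gave 2 curcumin members. The other shares computed under these settings, for members of 3 to 9 CpGs and for edges within 10 bp counted as equal stayed within the 95% Wilson interval of the main value. That interval treats pairs as independent, which they are not, so it is a rough yardstick and no test. The cause of the shifts named here was not tested. With the mean difference in place of the difference per CpG, 0 of the 57 regions of the named pairs changed sign.

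No paired analysis was possible because the tables hold no values of single bees, and for the same reason leaving out single bees was not run. The depth behind a region is unknown, pairs are not independent of each other, and the scale of the differences is taken from the methods.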

Other observations

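The authors' mean difference and the summed difference per CpG did not always have the same sign, which was the case in 89 of 2837 ethanol members (3.14%) and 26 of 2814 curcumin members (0.924%). The mean difference was over 1.57 in size, the largest difference that 2 arcsine values of a share can have, in 17 ethanol and 5 curcumin members. The largest was 16.3, for 2 ethanol CpGs on linkage group 2 (7047287 to 7048190) whose summed difference per CpG was 0.129. Among curcumin members it was 8.41, for 3 CpGs on scaffold GroupUn74 (144753 to 144894) whose summed difference per CpG was -0.0465. These 2 regions were singled out after their values were seen.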
